A study of Mus musculus with 6 samples.

Results

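Protein kinase C, its substrates and the genes that phorbol esters are known to switch on were represented by 7 genes of the 3549 genes listed as different between melan-a melanocytes and B16 melanoma cells. They were Prkd1, Prkcq and Prkca among the kinases, the kinase substrate Marcksl1, the growth factor Hbegf, the phosphatase Dusp1 and the immediate early gene Ier2. They were picked by name from that list, so each had already been called different on these arrays. Their melan-a/B16 ratios are therefore given as a description, with no test.

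Protein kinase C is a family of serine/threonine kinases that diacylglycerol recruits to membranes. Phorbol esters bind the same C1 domain as diacylglycerol but are degraded slowly, so that they first activate the isoforms that respond to diacylglycerol and, on long exposure, deplete their protein. The active kinases feed the MAP kinase cascade, which switches on immediate early genes, and in mouse melanocytes phorbol ester is a mitogen routinely added to the culture medium.

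RNA of melan-a cells, a partially immortalized and non-tumorigenic melanocyte line from C57BL/6 mice, was hybridized together with RNA of B16 cells, a melanoma line from the same strain, on whole mouse genome arrays made by Agilent. The 6 arrays came from separate biological replicates, and neither line was given retinoic acid. Melan-a RNA carried Cy5 and B16 RNA Cy3 on the 3 standard arrays (replicates 1, 3 and 5), and the dyes were exchanged on the 3 flip arrays (replicates 2, 4 and 6). Melan-a cells were kept in RPMI medium with fetal bovine serum and phorbol 12-myristate 13-acetate, whereas B16 cells were kept in DMEM with bovine calf serum, for which the methods name no phorbol ester. The cell line, its medium and serum, and the phorbol ester therefore cannot be told apart in any ratio below. Each group is 1 cell line, and less RNA per cell cannot be told apart from fewer cells that express a gene.

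The array files name probes but not genes. A gene was given to every probe whose mean ratio equaled the fold that the list gives the gene within 0.00051, and all such candidate probes were kept. This made 27 candidate probes for the 7 genes: 1 each for Prkd1 and Marcksl1, 2 for Hbegf, 3 each for Prkcq and Prkca, 4 for Dusp1 and 13 for Ier2. The mean ratio of a candidate is fixed by this match, whereas its spread, signal and dye behavior are not. The number of probes that would fall in the match by the density of probes with a similar fold was 0.0425 for Prkd1 and 0.148 for Marcksl1, against 0.924 for Hbegf, 1.96 for Prkcq, 2.70 for Dusp1, 6.17 for Prkca and 7.84 for Ier2. Prkd1 and Marcksl1 are thus the genes whose probe is named with the least ambiguity. The nearest probe outside the match lay 0.0501 away in fold for Prkd1, with a mean log2 ratio of 2.13, and 0.00190 away for Marcksl1, with a mean of -2.88. For the other genes it lay 0.000552 to 0.00112 away. The candidates of Prkcq, Prkca, Hbegf, Dusp1 and Ier2 also matched other listed entries, among them Mfap3l for Prkca, Ddr1 for Hbegf, Snai2 for Dusp1 and 11 entries for Ier2.

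All ratios are log2 of melan-a over B16, from normalized mean signals in arbitrary units. A probe was called when the adjusted p of a one-class limma fit was under 0.10 and the fold over 1.5. Of 39687 probes tested, 11.5% were called, 5.23% higher and 6.31% lower in melan-a. Every candidate was called for 6 of the 7 genes, 4 of them higher and 2 lower in melan-a, and Prkca had 2 of 3 candidates called. The genes were chosen on this contrast, so nothing is read from these counts. All 27 candidates passed the signal filter on 6 arrays, and 23 lay on the same side of 0 on every array, as did 15.7% of all probes tested and 80.9% of those called. The median SD over arrays was 0.53 among the candidates and 0.35 among all probes tested. With 13 alternatives for Ier2 among them, the candidates are described here as probes and not as genes.

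**Figure D1:**
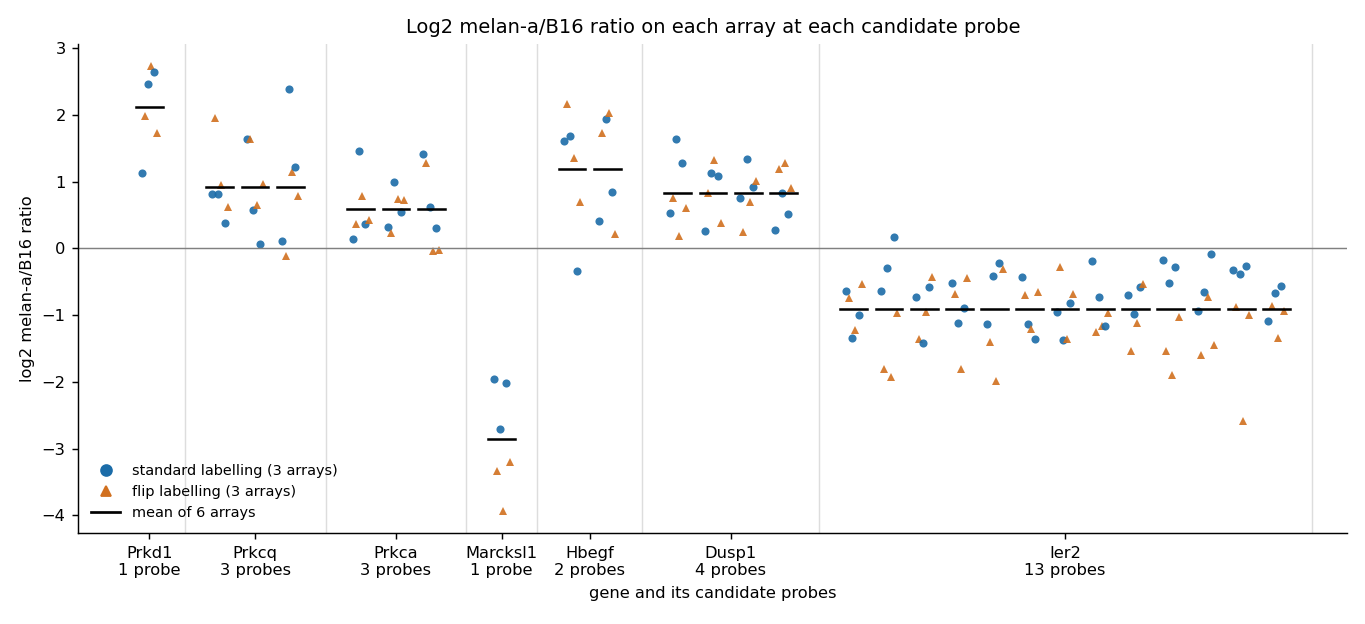
Log2 melan-a/B16 ratio (y axis) on each of 6 arrays at each of the 27 candidate probes, grouped by gene along the x axis. Circles are standard arrays, triangles flip arrays and bars the mean of the 6 arrays. Prkd1 lay above 0 and Marcksl1 below 0 on every array, and the 4 Dusp1 candidates had all 24 values above 0.

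Prkd1 encodes protein kinase D1, a diacylglycerol- and phorbol ester-binding kinase that is phosphorylated and activated by protein kinase C. The 250 bases before its start are shown because its probe had the highest ratio among the 7 genes. They lie at chr12:50649250-50649499 on the minus strand (RefSeq, GRCm38.p6). The capitals mark a pair of overlapping GC boxes, the motif of Sp1-type factors (GGGGCGGGG on the opposite strand, at positions -23 and -18 from the start).
Prkd1: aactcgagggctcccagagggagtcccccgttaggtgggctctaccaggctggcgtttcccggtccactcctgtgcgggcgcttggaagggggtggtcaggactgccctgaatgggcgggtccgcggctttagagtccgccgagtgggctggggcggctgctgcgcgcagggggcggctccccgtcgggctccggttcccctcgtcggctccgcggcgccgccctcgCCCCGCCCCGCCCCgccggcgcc

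The single Prkd1 candidate (probe A_51_P363338) had signals of 597, 789, 1289, 1580, 2394 and 1183 in melan-a and of 274, 199, 233, 238, 384 and 357 in B16 in replicates 1 to 6. The signals of the cell lines did not overlap. The log2 ratios were 1.13, 1.98, 2.47, 2.73, 2.64 and 1.73, with a mean of 2.11 ± 0.62 (SD, n = 6; SE 0.25), or 4.32-fold higher in melan-a. The fold of single arrays is not given, because the B16 signal was near that of empty spots.

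The B16 signal of Prkd1 was close to that of spots that carry no probe name. Each array had 500 spots named NA, taken here as empty, and their 95th percentile in the same dye was 164 to 288 for melan-a and 160 to 272 for B16. Prkd1 exceeded it on 6 of 6 arrays in melan-a and on 5 of 6 in B16, the exception being replicate 4. Its median signal was 6.69 times that level in melan-a and 1.34 times in B16. In B16, Prkd1 ranked between the 5.29 and the 29.8 percentile of probe spots, against the 51.2 to the 70.5 percentile in melan-a. The deposited normalized signals carry no background correction. When the median NA signal of each array and dye was taken off, an alternative chosen after seeing the data, Prkd1 had a mean log2 ratio of 3.33 ± 0.76 (SD, n = 6), from 2.26 in replicate 6 to 4.60 in replicate 4. The size of the Prkd1 ratio thus depends on how background is treated, and melan-a was higher on all 6 arrays either way.

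**Figure D2:**
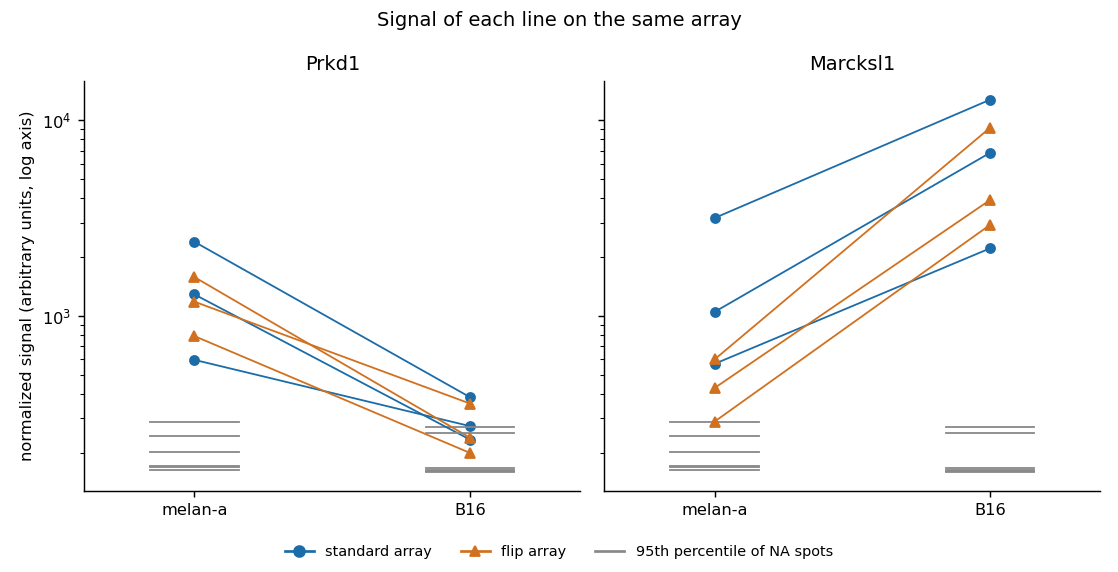
Normalized signal in arbitrary units (log y axis) of the Prkd1 and Marcksl1 candidates in melan-a and B16 (x axis), with a line joining the values of the same array. Circles are standard arrays, triangles flip arrays and grey bars the 95th percentile of the NA spots of each array. Prkd1 was higher in melan-a on 6 of 6 arrays, with B16 signals near the grey bars, and Marcksl1 was lower in melan-a on 6 of 6.

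Prkcq encodes protein kinase C theta, an isoform that needs diacylglycerol but not calcium. Its 3 candidates had a mean log2 ratio of 0.92, or 1.89-fold higher in melan-a, with SEs of 0.22 to 0.37 over 6 arrays. Candidate A_51_P338935 had log2 ratios of 0.82, 1.95, 0.82, 0.95, 0.38 and 0.62 in replicates 1 to 6. Candidate A_51_P440107 had 1.64, 1.64, 0.58, 0.65, 0.06 and 0.96. Both were above 0 on every array but in different order. The third, A_52_P419247, had log2 ratios of 0.11, -0.11, 2.39, 1.14, 1.22 and 0.79, so replicates 1 and 2 were its lowest arrays and the highest of A_51_P440107. Signals of the 3 candidates had medians of 1282 to 3885 in melan-a and 493 to 2245 in B16, above the 95th percentile of the NA spots on all arrays. Without replicate 3, 4, 5 or 6, 2 of the 3 candidates were called. The Prkcq probe is thus not settled, and its array-by-array pattern depends on which candidate is taken.

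Prkca encodes protein kinase C alpha, the conventional isoform that needs both calcium and diacylglycerol. It had the smallest absolute log2 ratio of the 7 genes, with a mean of 0.59 or 1.51-fold higher in melan-a, with SEs of 0.12 to 0.26. Candidate A_51_P118012 had log2 ratios of 0.14, 0.37, 1.47, 0.79, 0.36 and 0.42 in replicates 1 to 6. Candidate A_51_P219166 had 0.32, 0.23, 1.00, 0.74, 0.54 and 0.72. In both, replicate 3 was the highest and all arrays were above 0. Candidate A_52_P210501 had 1.41, 1.28, 0.62, -0.04, 0.30 and -0.02, with melan-a higher on 4 of 6 arrays, and it was the only candidate of the 27 that was not called. Without replicate 3, 0 of the 3 candidates were called, and without replicate 2, 4 or 6, 1 of the 3 was. The fold of 1.51 lies just above the threshold of 1.5. Candidate A_52_P210501 was also the brightest of the 3, with median signals of 6934 in melan-a and 5673 in B16. The others had medians of 1033 and 1083 in melan-a and 555 and 675 in B16.

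Marcksl1 encodes a relative of the kinase substrate MARCKS, an actin- and membrane-binding protein that leaves the membrane when protein kinase C phosphorylates it. The 250 bases before its start are shown because it was the member with the largest difference. They lie at chr4:129513331-129513580 on the plus strand (RefSeq, GRCm38.p6). None of the motifs searched was found there, so no letter is in capitals.
Marcksl1: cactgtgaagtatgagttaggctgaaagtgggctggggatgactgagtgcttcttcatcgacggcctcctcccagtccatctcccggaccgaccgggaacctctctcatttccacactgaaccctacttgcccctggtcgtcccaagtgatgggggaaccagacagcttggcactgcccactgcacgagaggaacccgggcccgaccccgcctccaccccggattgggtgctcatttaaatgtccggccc

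The single Marcksl1 candidate (probe A_51_P257550) had signals of 569, 288, 1049, 600, 3167 and 428 in melan-a and of 2218, 2925, 6829, 9173, 12755 and 3920 in B16 in replicates 1 to 6. The signals overlapped between arrays of unequal brightness, since the highest melan-a value (replicate 5) exceeded the lowest B16 values, but B16 was higher on every array. The log2 ratios were -1.96, -3.34, -2.70, -3.94, -2.01 and -3.19. Their mean was -2.86 ± 0.78 (SD, n = 6; SE 0.32), which is 7.25-fold higher in B16. In melan-a, the median signal was 2.48 times the 95th percentile of the NA spots and above it on 6 of 6 arrays. In B16, it was 30.0 times that level. After the NA signal was taken off, the mean log2 ratio was -3.35 ± 1.02 (SD, n = 6), or 10.2-fold higher in B16.

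Hbegf encodes heparin-binding EGF-like growth factor, a membrane-anchored ligand of the EGF receptor whose release by proteases is stimulated by phorbol ester. Its 2 candidates had a mean log2 ratio of 1.19, or 2.28-fold higher in melan-a, with SEs of 0.33 and 0.36. Candidate A_51_P161582 had log2 ratios of 1.61, 2.16, 1.68, 1.35, -0.34 and 0.69 in replicates 1 to 6. Candidate A_51_P181565 had 0.41, 1.73, 1.94, 2.03, 0.84 and 0.21. Replicates 2, 3 and 4 were high at both, replicate 6 was low at both, and replicate 5 was below 0 only at the first. Median signals were 5698 and 2659 in melan-a and 3022 and 887 in B16.

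Dusp1 encodes a nuclear phosphatase that switches off MAP kinases and is itself an immediate early gene. The 250 bases before its start are shown because they were the only ones among the genes with a promoter entry to hold a cAMP response element (TGACGTCA, read on both strands), which is marked in capitals and begins at position -143. They lie at chr17:26508473-26508722 on the minus strand (RefSeq, GRCm38.p6).
Dusp1: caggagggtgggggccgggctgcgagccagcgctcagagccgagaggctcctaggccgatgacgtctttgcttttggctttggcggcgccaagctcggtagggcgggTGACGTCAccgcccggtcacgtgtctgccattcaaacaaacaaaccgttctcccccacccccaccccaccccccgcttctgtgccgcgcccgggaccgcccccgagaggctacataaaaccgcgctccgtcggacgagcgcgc

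The 4 Dusp1 candidates had a mean log2 ratio of 0.83, or 1.78-fold higher in melan-a, with SEs of 0.15 to 0.22. All 24 values were above 0, from 0.18 to 1.64, so melan-a was higher on every array whichever candidate is taken. Over the 4 candidates, the log2 ratio lay between 0.25 and 0.76 in replicate 1, between 0.25 and 1.19 in replicate 2 and between 0.82 and 1.64 in replicate 3. It lay between 0.18 and 1.32 in replicate 4, between 0.51 and 1.28 in replicate 5 and between 0.38 and 1.01 in replicate 6. The median signals of the candidates ranged from 971 to 3081 in melan-a and from 415 to 1416 in B16.

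Ier2 encodes a nuclear protein of the immediate early class that is induced by serum, growth factors and phorbol ester. Its 13 candidates had a mean log2 ratio of -0.91, or 1.88-fold higher in B16, with SEs of 0.11 to 0.36. Of the 78 values, 77 were below 0 and 1 was above (0.17, replicate 5, candidate A_51_P265695). The lowest value was -2.59, in replicate 4. The candidates spanned a wide range of brightness, with median signals of 351 to 17250 in melan-a and of 541 to 36323 in B16. The 13 candidates are shared with 11 other entries, so neither the level of Ier2 nor its direction in replicate 5 can be given. Without replicate 2, 4 or 6, 9, 11 and 11 of the 13 candidates were called.

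Of the 7 genes, Prkd1, Prkcq, Prkca, Marcksl1 and Dusp1 had a promoter entry. The phorbol ester (TPA) response element TGAGTCA, the binding site of AP-1, was in none of the 5, against 4.46% of all 32851 promoters of 250 bases searched on both strands. The shares of all promoters were 1.55% for the cAMP response element, 10.4% for the GC box, 3.06% for the Egr element (GCGTGGGCG or GCGGGGGCG) and 1.47% for the CArG box. The last 2 motifs were in none of the 5. A match is a run of letters only.

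Whether the ratios depended on which dye a cell line carried was tested with a labelling term, standard minus flip. The study's one-class test weighs the mean ratio against its spread over arrays, to which a gap between orientations adds. Genes with a large gap were thus less likely to be listed, and no absence of a dye effect is read from this test. All 27 candidates had the same sign in both orientations, as had 100% of the 4580 called probes and 57.7% of all probes tested, so this follows from how they were chosen. None passed an adjusted p of 0.10 (limma, lowest adjusted p = 0.22) against 0.0403% of all 39659 probes, and 5 candidates had an unadjusted p under 0.05, against 13.2% of all probes. These 5 were the Marcksl1 candidate, A_52_P361993 of Dusp1, and A_51_P265695, A_52_P317923 and A_52_P537050 of Ier2. The median absolute difference was 0.36 among the candidates and 0.28 among all probes. The candidates include 13 alternatives for Ier2, so these counts and medians describe probes and not genes.

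Prkd1 had a mean log2 ratio of 2.08 on standard arrays and 2.15 on flip arrays, a difference of -0.07 (SE 0.42, limma adjusted p = 0.96). Marcksl1 had -2.23 on standard arrays and -3.49 on flip arrays, a difference of 1.27 (SE 0.30, unadjusted p = 0.0020, limma adjusted p = 0.23). The values were -1.96, -2.70 and -2.01 on standard arrays and -3.34, -3.94 and -3.19 on flip arrays, so the orientations did not overlap. B16 was thus higher in both orientations, and the gap between the orientations did not pass the adjusted threshold. Among the 13 Ier2 candidates, the difference ran between -0.27 and 1.31, with means of -0.26 to -1.05 on standard arrays and of -0.77 to -1.56 on flip arrays. For Dusp1 it ran between -0.58 and 0.63, for Prkcq between -0.50 and 0.63, for Prkca between 0.06 and 0.37 and for Hbegf between -0.42 and -0.26.

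**Figure D3:**
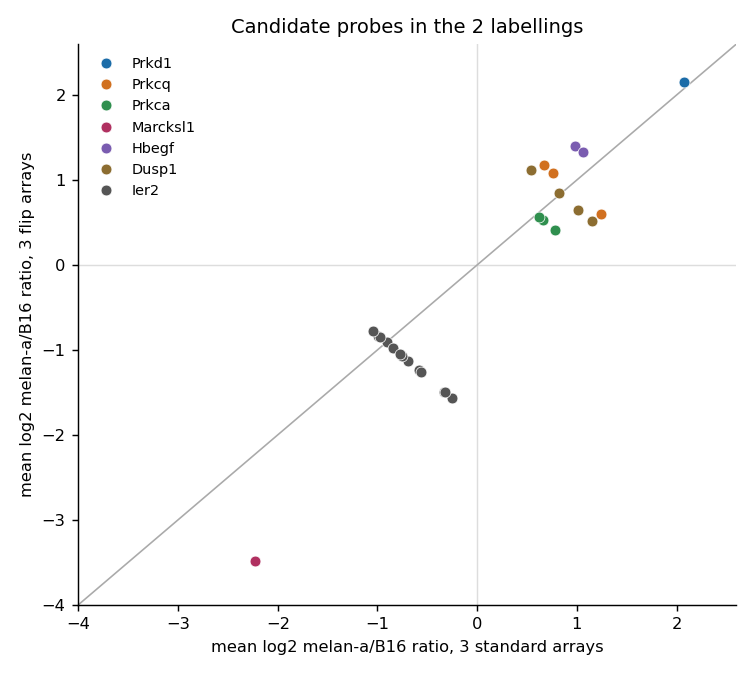
Mean log2 melan-a/B16 ratio of each candidate probe on the 3 standard arrays (x axis) and on the 3 flip arrays (y axis), with colors for genes and a line of equal values. All 27 points lie in the quadrants of equal sign, which follows from how they were chosen. Candidates of the same gene fall on a falling diagonal because the match fixes their mean over the 6 arrays.

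The wider pathway was read from 126 genes in 7 lists, of which 27 were found by name in the study's list of called genes. A gene had to pass a signal filter, a false discovery threshold and a 1.5-fold threshold to be there. Of its 3549 entries, 1167 have no symbol, so a listed gene can also be missed by name. The 99 genes not found are therefore not shown to be equal, and the found ones had to differ. Melan-a was higher for 20 of the 27 and lower for 7. In the study's list, 1495 of the 3549 genes (42.1%) were higher in melan-a. The 27 include the 7 members, and the lists were chosen with earlier results of these data known. Nothing is therefore read from this split. The median log2 ratio of the 27 was 0.81, which the threshold keeps away from 0, unlike the 0.01 over all probes tested. Of the probes called, 2076 were higher and 2504 lower in melan-a. Every candidate was called for 14 of the higher and 4 of the lower genes, and 9 had a candidate that was not called. Without replicate 3 or without replicate 6, every candidate was called for 9 of the higher genes.

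The kinase list had 3 of 12 genes, the 3 described above, all higher. Of the genes that make, remove or bind diacylglycerol, 5 of 27 were found. Plcb1, a phospholipase C that makes it, was 2.03-fold higher in melan-a with both candidates called (SE at most 0.30), and Dgkq, a kinase that removes it, 1.60-fold higher with 3 candidates called (SE at most 0.21). Plcd4, Dgkz and Unc13b, with mean log2 ratios of 0.81, -0.87 and -0.61, each had candidates that were not called. Dgkz is, like Dgkq, a diacylglycerol kinase, so the list held 3 genes with a ratio above 0 and 2 below.

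Among substrates and scaffolds, 3 of 14 genes were found. Add3, the cytoskeletal protein adducin gamma, had 1 candidate, 3.60-fold higher in melan-a (mean log2 ratio 1.85, SE 0.35, 6 of 6 arrays higher), opposite in direction to Marcksl1. Add1 had 9 candidates, not all of them called.

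Of the immediate early genes, 8 of 30 were found. Ccn1, a secreted matrix protein, was 2.39-fold higher in melan-a (2 candidates), Ier5 2.27-fold (4 candidates) and the transcription factor Klf2 2.03-fold (3 candidates). The transcription factor Myc was, with Ier2, lower in melan-a, being 2.50-fold higher in B16 (7 candidates, all below 0 on 6 of 6 arrays). For Egr1, Egr3 and Btg2, with mean log2 ratios of 0.75, 0.59 and 0.78, not every candidate was called. Immediate early genes were thus found in both directions, 6 with a ratio above 0 and 2 below.

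MAP kinase feedback was represented by Dusp1 and Dusp4 (2 of 16), and the 11 Dusp4 candidates had a mean log2 ratio of -0.86, not all of them called. In the EGF family list, 4 of 16 genes were found. Tgfa, another EGF receptor ligand, had 1 candidate, 2.23-fold higher in melan-a (mean log2 ratio 1.16, SE 0.30, 6 of 6 arrays). The proteases Adam10, 2.11-fold higher in melan-a, and Adam9, 1.94-fold higher in B16, differed in direction.

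Of 11 other genes known to be induced by phorbol ester, 2 were found. Plat, tissue plasminogen activator, was 3.22-fold higher in melan-a (2 candidates) and Sphk1, sphingosine kinase, 3.00-fold (1 candidate, SE 0.19). Both were higher on 6 of 6 arrays.

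**Figure D4:**
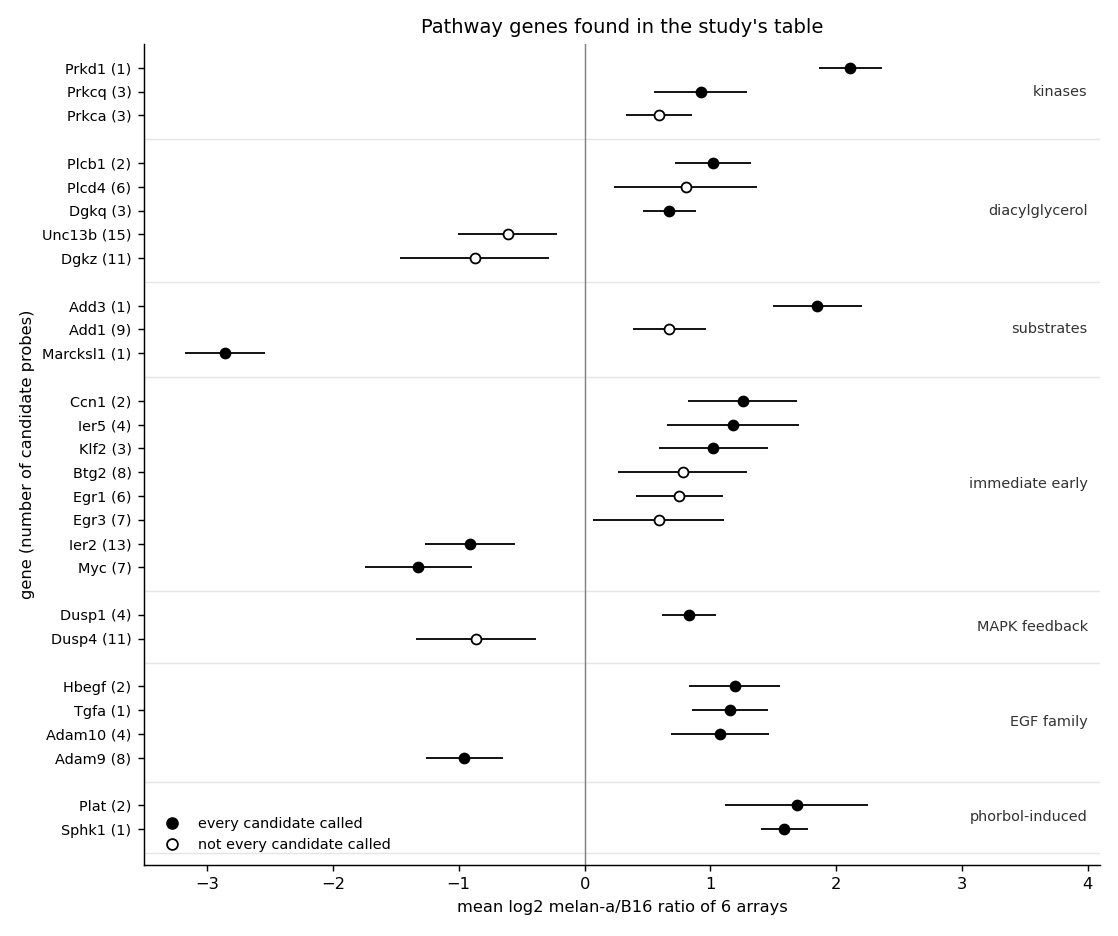
Mean log2 melan-a/B16 ratio of 6 arrays (x axis) of the 27 pathway genes in the study's list, grouped by role (y axis, with the number of candidate probes). Bars are 1 SE of the candidate with the largest SE, and filled points are genes whose every candidate was called. Of the 27 genes, 20 lie above 0 and 7 below.

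Among the pathway genes with a single candidate, the one whose 6 ratios were nearest to those of Prkd1 was Sphk1, with a root mean square difference of 0.91 over 6 arrays, followed by Tgfa at 1.05, of 4 genes compared. Sphk1 had log2 ratios of 2.19, 1.24, 1.88, 1.84, 1.39 and 0.98 in replicates 1 to 6, higher than those of Prkd1 in replicate 1 and lower on the other arrays. Tgfa had 0.23, 0.93, 1.16, 2.50, 1.08 and 1.05, lower than Prkd1 on every array. The nearest gene to Marcksl1 was Tgfa at 4.22, followed by Sphk1. Each of the 4 genes compared with Marcksl1 was higher in melan-a, so none could be close. The root mean square difference includes the gap between mean ratios, which the match fixes. No likeness between genes is therefore read from either ranking.

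The named genes gave only a partial check of the cell types, since a marker not found may be listed without a symbol. Of 12 melanocyte markers 3 were in the list: Kit was 1.85-fold and Oca2 5.86-fold higher in melan-a (1 candidate each, Oca2 on 5 of 6 arrays), and Gpnmb was 2.08-fold higher in B16 (4 candidates). Of 5 fibroblast markers Col1a1 was found, 7.18-fold higher in melan-a (SE 0.83), and of 5 keratinocyte and 5 leukocyte markers none was. The part of other cell types in the ratios of the 7 genes was not tested. The arrays differed in brightness, with a median summed signal per probe spot of 780 to 4308, and at least 81.6% of probe spots had a sum over 400.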

How the data were processed

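The deposited files hold log2 signals of both dyes. Per the file headers, the authors quantified the 6 arrays in ImaGene 6.0.1, without background correction, and normalized the dyes of an array by global lowess (smoothing 0.2). Each signal was assigned to the dye its header names for that image, since replicate 3 lists Cy5 first. The deposited series matrix gives these log2 ratios with replicates 4 and 5 exchanged. The array files were therefore used throughout.

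Only spots whose summed signal exceeded 400 were used, a limit the study states for background-subtracted intensity, which these files do not hold. Probes needed values on 3 or more arrays, and repeated spots were averaged. Log2 melan-a/B16 ratios were fitted in limma 3.58.1 (R 4.3.3), once as a one-class test and once with a labelling term, with Benjamini-Hochberg adjustment across probes. Python 3.11.15, numpy 2.4.6, pandas 2.3.3 and matplotlib 3.10.9 served for the rest. Tested on simulated data of 39687 probes, the one-class fit found 81% of 100 probes given a log2 change of 1 and 96% of 100 given a change of 2, with 7 false calls. The labelling fit, simulated on 39659 probes, recovered 70% of 100 probes with a difference of 2 and 92% of 100 with a difference of 4. The labelling differences of the candidates were smaller, at most 1.31, and recovery at such sizes was not simulated. The number of arrays limits the precision.

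Genes named were the 7 members with all candidate probes, the cell type markers, and the pathway genes in the study's table, with values for those with up to 3 candidates or the largest change of their list. Values of Adam9, Adam10, Ier5, Plcd4, Dgkz, Unc13b, Egr1, Egr3 and Btg2 were added after they were seen. For each member with 1 candidate, the 2 single-candidate pathway genes with the smallest root mean square difference were named. The study lists, for each gene, the feature with the largest fold. Symbols came from the RefSeq gene table by accession (2283 of 3549 entries), listed symbol (41) or synonym (58), and 1167 entries have none. A gene of the lists is not reported here and was left out of their counts. The members and lists were chosen with earlier results of these data known. Alternatives were the median signal, no filter or a limit of 800, each replicate left out, array centring, either orientation alone, one-class SAM with 64 sign changes, labelling as a covariate, the series matrix and other match rules.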

Additional observations from a re-analysis of the deposited data

Results flagged for a closer look

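Of the 27 candidate probes, 2 had an array whose gap to the nearest other array, as a part of the range of the 6 arrays, was above the 95% limit of Dixon's test. About 1 in 20 such groups would be flagged by chance. At the Prkcq candidate A_51_P338935, replicate 2 was the highest with a log2 ratio of 1.95, its gap being 0.635 of the range. At the Ier2 candidate A_52_P537050, replicate 4 was the lowest with a log2 ratio of -2.59, its gap being 0.682 of the range. Both are flip arrays, and the other candidates of these genes showed no such gap on any array.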

How the results depend on the processing

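The mean log2 ratio of all 7 genes, averaged over candidates, kept its direction with the median signal, no filter, the limit of 800, the series matrix, centring, either orientation alone, each replicate left out and the NA signal taken off (the last chosen after seeing the data). All 27 candidates passed the filter on 6 arrays, so leaving it out could not change these means. The series matrix holds the same ratios. Every called probe had the same sign in both orientations, and the match fixes the mean. No support is therefore read from the kept direction. The mean ratio moved by more than 1 SD only for Prkd1, to 3.33 with the NA signal taken off. Single candidates moved by more than their SD there too, namely A_51_P373696 of Dusp1, to 1.28, and A_51_P111950, A_51_P505134 and A_52_P317923 of Ier2, to -1.41, -1.45 and -2.15. The cause was not tested. With 1 replicate left out, the mean log2 ratio ranged between 1.99 and 2.31 for Prkd1, 0.85 and 1.00 for Prkcq, 0.50 and 0.64 for Prkca, -3.04 and -2.64 for Marcksl1, 1.04 and 1.38 for Hbegf, 0.75 and 0.91 for Dusp1 and -0.98 and -0.80 for Ier2. The number of genes with every candidate called lay between 4 and 6. The candidate probes numbered 47 at a match tolerance of 0.001, which is wider by construction, with Prkca going to 10, Hbegf to 4 and Ier2 to 24, and Prkd1 and Marcksl1 keeping 1. Pathway genes with every candidate called lay between 9 and 12 for higher genes and between 3 and 4 for lower genes with 1 replicate left out. With a summed signal over 800, 2 lower pathway genes had every candidate called, where a candidate left out by the limit counts as not called. Probes called in the labelling fit lay between 0 (without replicate 5) and 58 (without replicate 6), and 0 candidates of the 7 genes were called in any of these. One-class SAM called 4930 of 39687 probes, among them all 4580 of limma and all 27 candidates. The study made its list with one-class SAM on these arrays. That the matched candidates were called thus follows from how they were chosen. The weak signal of Prkd1 in B16 and the missing background correction limit its fold, and the missing probe names limit the 5 genes with several candidates.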
